A study of Mus musculus with 7 samples.

Results

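Gene deserts are long stretches of a genome without protein-coding genes, and their H3K4me1 fragments were examined here in single mouse zygotes. Deserts were taken as 10 kb bins of the autosomes that lay 500 kb or more from every protein-coding gene and at least 2 Mb from both ends of the covered chromosome. The rule used gene positions, with the first and last fragment as the ends of a chromosome, and no fragment level. It gave 19740 of 240328 autosomal bins, or 197.4 Mb. Neighbouring bins were joined into 238 deserts of 10 to 3530 kb, with a median length of 495 kb. The nearest protein-coding gene on each side therefore lay about 500 kb beyond the edge of a desert.

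The study read 1 histone mark by CUT&Tag, in which an antibody directs the transposase Tn5 to marked chromatin, together with the full-length transcriptome of the same zygote. It comprised 7 samples, of which the 2 H3K4me1 batches are used here, and each batch held the zygotes of 1 mouse. Per the series' design text, ovulation was induced with pregnant mare serum gonadotropin at 5 IU, followed after 46 to 48 h by hCG (human chorionic gonadotropin), also at 5 IU. Collection was at 23 post-hCG, for which the text names no unit, and the zona pellucida was removed. The H3K4me1 labels give neither strain nor age and list no treatment. Both batches were pooled in 1 table of 16 zygote libraries, and 14 libraries with at least 5000 fragments were kept, with 7106 to 197312 fragments each (median 96240) and 1404305 in all. Libraries carry a number 4 or 5 in their names, which the labels do not explain, and are named here by it and their cell number, as in 5-4. The pool is 1 sample without a replicate, so that no test between samples was possible, and intervals are exact 95% intervals that cover counting error only. Without a background control, unspecific cutting by Tn5 cannot be separated from the mark in any level given here.

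H3K4me1, monomethylated lysine 4 of histone H3, is a mark of enhancers, primed or active, and of the flanks and bodies of active genes. Deserts are in general poor in genes and CpG islands, and large parts of them replicate late and contact the nuclear lamina. Some deserts carry distant enhancers of the developmental genes at their borders, while others hold few known regulatory elements. In the early embryo the genome passes from the gamete state to the start of zygotic transcription, and much of its chromatin is rebuilt.

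Besides 456 pseudogenes and 303 antigen receptor segments, 291 long noncoding RNA (lncRNA) genes lie in or reach into deserts. The start regions of 4 of them are shown for what such sequence looks like where the level over the gene was among the highest and among the lowest. The sequences are from RefSeq for GRCm38.p6, run 5′ to 3′ from 250 bases before to 50 after the annotated start, and have every CG dinucleotide in capitals. The genes C230079O03Rik (chr7:136349366-136349665, minus strand) and C030029H02Rik (chr7:136268074-136268373, plus strand) were among the highest. Gm13912 (chr2:108291270-108291569, minus strand) and Gm6602 (chr3:111881653-111881952, plus strand) were among the lowest.
C230079O03Rik: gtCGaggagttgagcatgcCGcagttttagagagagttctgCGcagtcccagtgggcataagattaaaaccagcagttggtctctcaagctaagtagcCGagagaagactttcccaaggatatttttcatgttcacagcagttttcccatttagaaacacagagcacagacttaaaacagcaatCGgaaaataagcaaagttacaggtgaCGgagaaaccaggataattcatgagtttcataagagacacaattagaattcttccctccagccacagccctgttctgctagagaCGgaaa
C030029H02Rik: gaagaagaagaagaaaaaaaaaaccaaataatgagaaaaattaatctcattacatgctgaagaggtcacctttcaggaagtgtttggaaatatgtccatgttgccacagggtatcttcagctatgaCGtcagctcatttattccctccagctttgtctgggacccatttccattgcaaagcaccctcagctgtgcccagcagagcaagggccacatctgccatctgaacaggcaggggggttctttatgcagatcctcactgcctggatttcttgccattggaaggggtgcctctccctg
Gm13912: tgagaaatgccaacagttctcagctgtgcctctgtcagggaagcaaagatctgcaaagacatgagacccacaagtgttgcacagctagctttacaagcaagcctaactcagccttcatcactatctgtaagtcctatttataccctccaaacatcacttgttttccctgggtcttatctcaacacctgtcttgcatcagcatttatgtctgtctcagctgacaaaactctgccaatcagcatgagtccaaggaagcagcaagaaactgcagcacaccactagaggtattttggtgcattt
Gm6602: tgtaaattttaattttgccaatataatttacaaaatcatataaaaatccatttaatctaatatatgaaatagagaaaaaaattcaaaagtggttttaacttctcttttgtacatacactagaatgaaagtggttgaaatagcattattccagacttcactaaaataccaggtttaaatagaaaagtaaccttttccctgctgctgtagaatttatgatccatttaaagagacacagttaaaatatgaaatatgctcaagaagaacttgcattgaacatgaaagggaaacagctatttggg
The 4 sequences hold 7, 1, 0 and 0 CG dinucleotides, and 52.5% of all autosomal start regions in the RefSeq table hold at least 7. Within 5 kb centred on the start lay 8 fragments at C230079O03Rik, 8 at C030029H02Rik, 0 at Gm13912 and 0 at Gm6602. The other named genes with a start region in the table lay between these, with 5 fragments at Gm36212 and 4 at Gm33758, which were among the highest, and 2 at 4930474H20Rik and 0 and 1 at the 2 starts of Gm31145, which were among the lowest. The genes were chosen by fragments that include part of these windows, so that the counts only describe them.

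Deserts had about 0.5 times as many H3K4me1 fragments per base as the other autosomal sequence. They held 59903 fragments, 4.44% of the autosomal fragments on 8.21% of the bins. Levels are given relative to the autosomal mean of 5.62 fragments in 10 kb, which is set to 1. The level was 0.540 (95% interval 0.536 to 0.544) in deserts and 1.04 (1.04 to 1.04) in the other 220588 bins, a ratio of 0.519 (0.514 to 0.523). Other bins that overlapped a protein-coding gene had a level of 1.17 (1.16 to 1.17), and other bins that overlapped none had 0.911 (0.909 to 0.914). Deserts thus lay below both kinds of other bins. Gaps of the assembly and repeats that reads cannot be placed in count towards the length of a bin, since no genome sequence was used here. With all runs of 5 or more bins without a fragment left out, in deserts and elsewhere, the ratio was 0.516. These runs were picked by their lack of fragments, and gaps and repeats themselves were not identified.

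Each of the 14 zygotes had fewer fragments per base in deserts than elsewhere. The ratio of the 2 levels ranged from 0.434 (0.423 to 0.446) in library 5-7 to 0.597 (0.580 to 0.614) in library 5-5, and the median zygote had 0.549. The desert level itself ranged from 0.456 to 0.617 of the library's mean. The level elsewhere ranged from 1.03 to 1.05, and it must lie close to 1, since these bins make up most of that mean. Library 5-7 had 28.5 fragments per Mb of desert against 65.6 per Mb elsewhere, and library 5-9 had 10.0 against 17.8. The deepest library, 5-4, had 39.5 against 81.7, which is less than 1 fragment per 10 kb in both. The 3 lowest ratios, 0.434, 0.482 and 0.483, belonged to the 3 deepest libraries, 5-7, 5-6 and 5-4, with 154010, 166370 and 197312 fragments. The part of depth in the spread between zygotes was not tested. Pooled by name, the ratio was 0.527 (0.516 to 0.537) in the 3 libraries named 4 and 0.517 (0.512 to 0.522) in the 11 named 5.

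**Figure D1:**
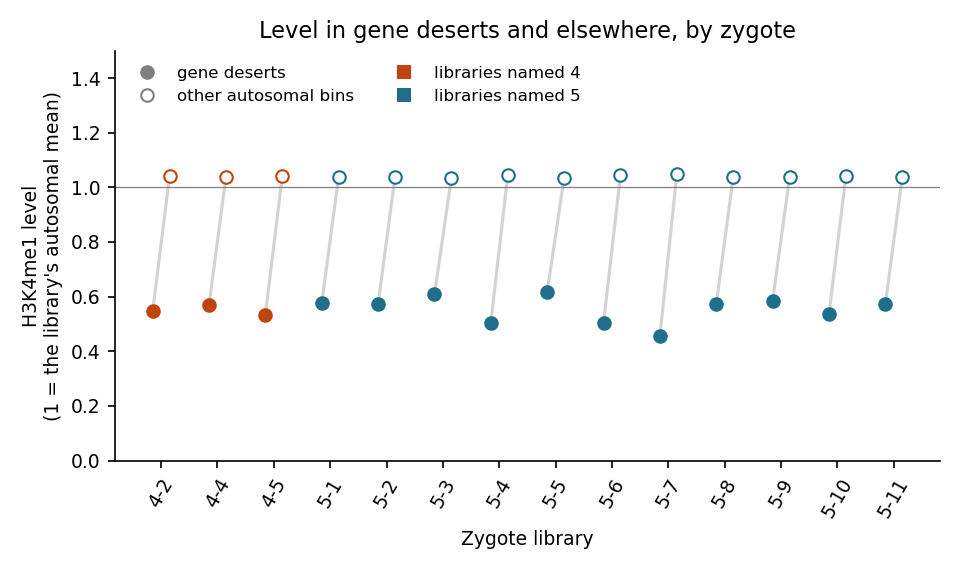
H3K4me1 level (1 = the autosomal mean of the library) of each of the 14 zygote libraries in gene deserts (filled points) and in the other autosomal bins (open points), with libraries named 4 in orange and named 5 in blue. All desert points lie between 0.456 and 0.617. Open points must lie close to 1, since the other bins make up most of the mean.

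The level declined with distance from genes on both sides of the 500 kb limit. It was 1.17 in bins that overlap a protein-coding gene, 1.02 up to 10 kb away, 0.991 at 10 to 50 kb, 0.956 at 50 to 100 kb, 0.857 at 100 to 250 kb and 0.725 at 250 to 500 kb. Inside deserts it was 0.593 (0.586 to 0.600) at 500 to 750 kb, 0.511 (0.503 to 0.520) at 750 to 1000 kb, 0.487 (0.479 to 0.496) at 1 to 1.5 Mb and 0.501 (0.487 to 0.515) at 1.5 Mb or more. The decline therefore ran up to about 1 Mb, and the last 3 classes differed little. In all 13 libraries above 20000 fragments the class at 500 to 750 kb lay below that at 250 to 500 kb and above that at 750 to 1000 kb. In 11 of them the class at 1 to 1.5 Mb lay below that at 750 to 1000 kb, and in 5 of them the farthest class lay below that at 1 to 1.5 Mb. Bins just inside the limit, at 500 to 520 kb, had a level of 0.662 (0.641 to 0.685), and bins just outside, at 480 to 500 kb, had 0.663 (0.641 to 0.685). The limit thus marks no step in the mark.

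**Figure D2:**
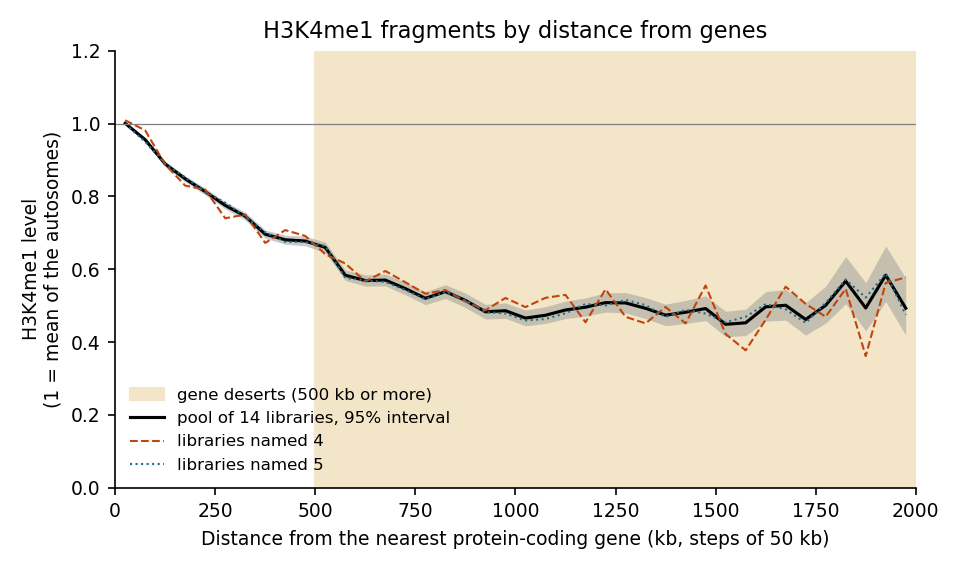
H3K4me1 level (1 = mean of the autosomes) in steps of 50 kb of distance from the nearest protein-coding gene, for bins that overlap none. The black line is the pool with its 95% interval in grey, the dashed line the libraries named 4, the dotted line those named 5, and the shaded part the gene deserts; the lines fall to about 1 Mb and scatter without a further fall beyond.

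The same gradient was seen within long deserts. Over the 71 deserts of 1 Mb or more, the level was 0.555 (0.538 to 0.571) in the outermost 100 kb, 0.528 (0.512 to 0.544) in the next 100 kb and 0.500 (0.484 to 0.515) in the third. It was 0.501 (0.486 to 0.517) at 300 to 400 kb and 0.488 (0.473 to 0.504) at 400 to 500 kb from the edge. The outermost and innermost intervals do not overlap, while those of neighbouring steps do. The outermost 100 kb include a bin of 97 piled-up fragments and the next 100 kb a bin of 146, both described below. Levels of the steps without them were not computed, so that the size of the decline is not settled.

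All 19 autosomes had a lower level in deserts. The ratio to the other bins of the same chromosome ranged from 0.422 (0.402 to 0.443) on chromosome 17 to 0.609 (0.583 to 0.636) on chromosome 13. Deserts made up 13.2% of chromosome 14, the highest share, and 2.52% of chromosome 19, the lowest. The desert level itself ran from 0.464 on chromosome 17 to 0.642 on chromosome 7, and the level of the other bins from 0.910 on chromosome 3 to 1.25 on chromosome 11.

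Most of a desert was low, and not only its mean. Windows of 100 kb, for which the autosomal mean gives 56.2 fragments, had an interval below 1 in 1591 of 1772 desert windows (89.8%), against 27.9% of windows outside deserts. An interval above 1 was found in 7 desert windows (0.395%) and in 27.6% of windows outside. The median window had a level of 0.498 in deserts and 0.979 outside. Of the 10 kb bins, 12.6% in deserts and 46.2% elsewhere reached the autosomal mean. The variance of the count per bin over its mean was 1.62 in deserts and 2.65 elsewhere, with bins above 10 times the mean left out. This quotient falls with the mean, and the variance beyond counting error over the squared mean was 0.208 in deserts and 0.283 elsewhere.

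Bins without a fragment made up 9.28% of desert bins (8.87% to 9.69%) and 3.58% of other bins (3.50% to 3.66%), against 4.05% of all autosomal bins. Of the 1831 empty desert bins, 1394 had fragments in the bins on both sides. Runs of 5 or more empty bins held 58 desert bins, 33 of them in 1 run of 330 kb (chr2:100450001-100780000) between Lrrc4c, a synaptic adhesion gene, and Iftap. That desert had a level of 0.416, and 0.469 without the run.

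**Figure D3:**
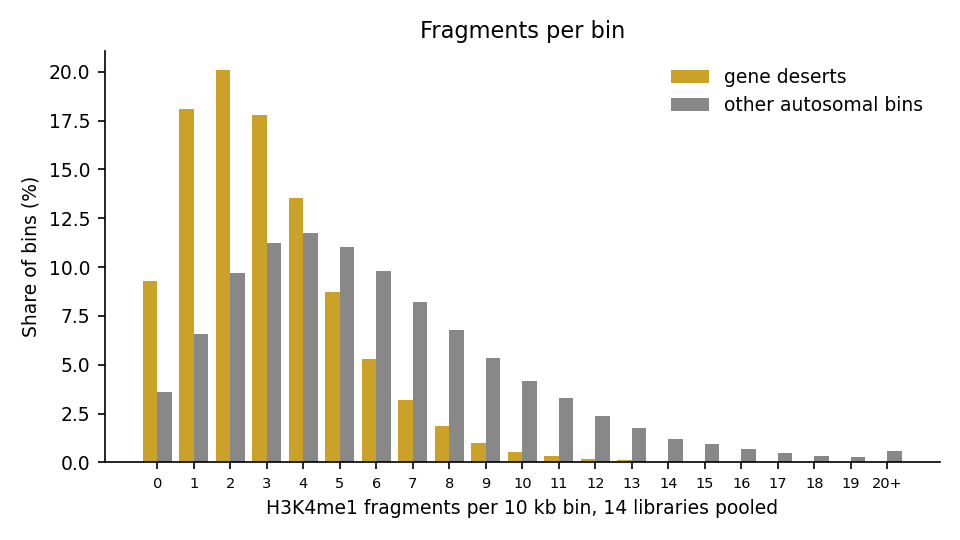
Share of 10 kb bins (%) by the number of H3K4me1 fragments in them over the 14 pooled libraries, for gene deserts and for the other autosomal bins. Deserts have their median at 3 fragments and the other bins at 5.

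Deserts differed from each other. Of all 238, 196 had an interval below 1, 4 had an interval above 1, and 38 had intervals that held 1. Among the 180 deserts of 200 kb or more the numbers were 171, 1 and 8, and the level ran from 0.335 to 1.62 with a median of 0.543 and quartiles of 0.470 and 0.628. Short deserts were higher. The summed level was 0.800 (0.769 to 0.831) in the 58 deserts under 200 kb, 0.646 (0.631 to 0.660) in the 61 of 200 to 500 kb, 0.579 (0.568 to 0.589) in the 48 of 500 kb to 1 Mb, 0.498 (0.491 to 0.506) in the 44 of 1 to 2 Mb and 0.507 (0.500 to 0.514) in the 27 longer ones. A short desert consists of bins close to the 500 kb limit, so that length and distance from genes cannot be told apart in these sums. The sums include the 4 bins with piled-up fragments described below. The richest, with 184 fragments, lies in a desert under 200 kb that had 2.37 with it and 0.586 without it. The median levels in the 5 classes, in the same order, were 0.695, 0.628, 0.574, 0.495 and 0.492. Over the 119 deserts of at least 500 kb the levels had a standard deviation of 0.106 between deserts, while counting error alone gave about 0.0303. The libraries named 4 and those named 5 shared part of this order, with a Pearson correlation of 0.62 and a Spearman correlation of 0.57 over the 119 deserts, as a description. The libraries named 4 had as few as 18 fragments in a desert, and in 3 of the 119 the intervals of the 2 sets did not overlap. All 3 were higher in the libraries named 4, and 2 of them are named here after their values were seen. The level was 0.723 in the libraries named 4 and 0.509 in those named 5 between Celf2 and Gata3, and 0.680 and 0.421 between Dnah5 and Ctnnd2.

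**Figure D4:**
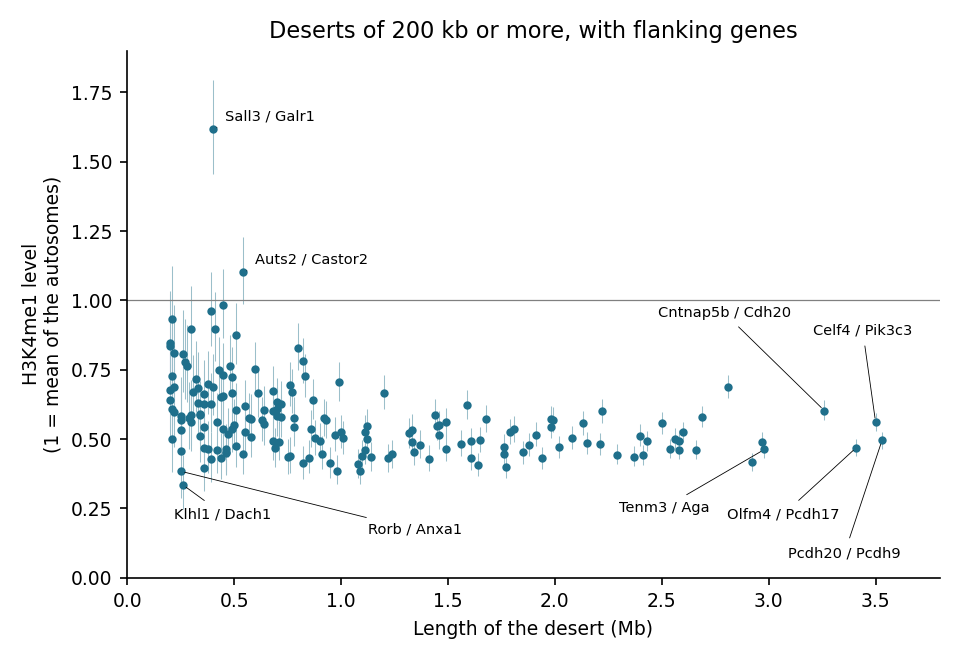
H3K4me1 level (1 = mean of the autosomes, bars are 95% intervals) of the 180 deserts of at least 200 kb by their length in Mb, with the nearest protein-coding genes named for the longest and for the extreme deserts. Levels of short deserts scatter from 0.335 to 1.62, and all 27 deserts of 2 Mb or more lie below 1.

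The surroundings of a desert moved with it. Over the 119 deserts of at least 500 kb, the level of the other bins within 1.5 Mb on each side had a median of 0.750 and ran from 0.420 to 1.44. As a description, it correlated with the level of the desert with a Pearson correlation of 0.70 and a Spearman correlation of 0.61 across deserts, which share libraries and, where close to each other, flanks. The desert was lower than its flanks in 116 of the 119. The 3 exceptions, named after their values were seen, were the desert between Dsel and Cntnap5a on chromosome 1, with 0.688 against 0.541 in its flanks, that between Gm40892 and Flrt2 on chromosome 12, with 0.525 against 0.470, and that between Kcnv1 and Csmd3 on chromosome 15, with 0.513 against 0.508. The desert on chromosome 12 had 0.382 without its bin of 146 fragments, which is below its flanks. The interval of the desert on chromosome 15, 0.465 to 0.565, holds the level of its flanks.

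Of the 5 longest deserts, 4 lay beside an adhesion gene of the nervous system, and all 5 were low. The longest (chr14:88980001-92510000) lies between the protocadherin genes Pcdh20 and Pcdh9, 4.54 Mb apart, and had a level of 0.495 (0.465 to 0.527) from 983 fragments. Its libraries had a median level of 0.530, the lowest was 0.339 in library 4-2, and 13 of 14 lay below 1, the exception being the shallow library 5-11. This desert holds a bin with 159 fragments, described below, and had a level of 0.417 without it. That bin held 11 of the 14 fragments that library 5-11 had in this desert, so that the exception rests on it. The next (chr18:26260001-29760000), between Celf4, which encodes a neuronal RNA-binding protein, and Pik3c3, which encodes a lipid kinase of autophagy, had 0.561 (0.529 to 0.595). All 14 libraries were below 1 there, with library 5-11 at 0 fragments and 0.843 as the highest level. The desert between Olfm4 and the protocadherin gene Pcdh17 (chr14:80530001-83940000) had 0.470 (0.439 to 0.501), with libraries from 0.292 to 0.677 around a median of 0.451. That between Cntnap5b, of the neurexin family, and the cadherin gene Cdh20 (chr1:101000001-104260000) had 0.603 (0.568 to 0.640), with libraries from 0.427 to 0.892 and a median of 0.643. The desert between the teneurin gene Tenm3 and Aga, which encodes a lysosomal enzyme (chr8:50030001-53010000), had 0.463 (0.431 to 0.497), with a library median of 0.498 and 0.615 as the highest.

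One desert of 400 kb stood above the autosomal mean. It lies on chromosome 18 (chr18:81490001-81890000) between Sall3, a zinc finger factor of the spalt family that acts in development, and Galr1, a receptor of the neuropeptide galanin. It held 364 fragments and had a level of 1.62 (1.46 to 1.79), against a median of 0.543 over the 180 deserts of at least 200 kb. The level was 0.616 in library 4-4, the lowest, 2.90 in library 5-5, the highest, and 1.62 in the median library. It was above 1 in 13 of 14 libraries, and 7 of them had an interval above 1 and 0 an interval below 1. This desert and the others named as highest were picked by the pooled fragments of these libraries, so that library counts only describe them. No bin there was empty and the highest held 17 fragments, so that the level did not rest on 1 bin. The libraries named 4 had 1.27 (0.948 to 1.67) there and those named 5 had 1.69 (1.51 to 1.89).

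The other 4 highest deserts of at least 200 kb had intervals that held 1. The desert between Auts2, a gene of brain development, and Castor2, a homologue of an arginine sensor (chr5:133050001-133590000), had 1.10 (0.989 to 1.23), with 10 of 14 libraries above 1. The desert between Dhx35 and Gm826 (chr2:159360001-159810000) had 0.985 (0.866 to 1.11) and that between Gm4868 and Tmem132c (chr5:126350001-126740000) had 0.963 (0.837 to 1.10). The desert between the netrin receptor gene Dcc and Mex3c (chr18:72860001-73070000) had 0.932 (0.766 to 1.12), with 7 of 14 libraries above 1.

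Deserts under 200 kb with an interval above 1 were 3, named here after their values were seen. The desert between Plekhb2 and Hs6st1, which encodes a heparan sulfate sulfotransferase (chr1:35380001-35560000), had 1.45 (1.23 to 1.71) from 147 fragments. That between the proliferation gene Mki67 and the DNA repair gene Mgmt (chr7:136220001-136390000) had 1.36 (1.14 to 1.62) from 130 fragments and 4 lncRNA genes. That between the integrin gene Itga1 and Isl1, a LIM homeodomain factor of heart and motor neurons (chr13:115610001-115790000), had 2.37 (2.08 to 2.69), but 184 of its 240 fragments lay in 1 bin. Without that bin its level was 0.586.

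At the other end, the 5 lowest deserts of at least 200 kb lay between 0.335 and 0.395, and 4 of them are described. The lowest (chr14:97020001-97280000) lies between Klhl1, which encodes an actin-binding protein of neurons, and Dach1, a factor of eye and limb development, and had 0.335 (0.248 to 0.443) from 49 fragments. All 14 libraries were below 1, with a median of 0.169, but the median library had only 3 fragments there and 1 library had 0. The libraries named 4 had 0.538 (0.294 to 0.902) and those named 5 had 0.291 (0.203 to 0.405). The lowest deserts were picked by the pooled fragments of these libraries, so that library counts only describe them. The desert between Rorb, a nuclear receptor gene of retina and cortex, and Anxa1 (chr19:19620001-19870000) had 0.384 (0.289 to 0.501). The desert between Pcdh9 and Spertl (chr14:94400001-95380000) had 0.387 (0.337 to 0.442) and 31 fragments in its richest library. The desert between the glutamate receptor gene Grin3a and Cylc2, a gene of the sperm head (chr4:50350001-50710000), had 0.395 (0.314 to 0.492). Intervals of these 5 overlap, so that their order is not resolved at this depth.

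Of 442 genes that border a desert, 60 belonged to a list of neural adhesion, guidance and synaptic genes that held 345 of 20665 autosomal protein-coding genes. A list of developmental regulators held 121 of these genes, and 28 of the bordering genes belonged to it. That list was drawn up as regulators with long-range enhancers and includes Eph receptors and Ptprd. Its share among bordering genes therefore depends on this choice and is no result about deserts. The 61 deserts of at least 200 kb beside a gene of the neural list had a median level of 0.495 and a median length of 1220 kb. Of them, 60 had an interval below 1. The 19 beside a developmental regulator had a median of 0.577 and a length of 830 kb, with 16 below and 1 above. The 100 beside neither list had a median of 0.563 and a length of 595 kb, with 95 below and 0 above, and all 180 had a median of 0.543. The neural list was made by the beginnings of gene symbols. It includes potassium channel genes and missed the neural genes Lrrc4c, Unc5d and Grin3a, so that deserts beside these were counted as beside neither. The 3 sets differ in length, which moves with the level, and its part in these medians was not tested.

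Beside developmental regulators the levels were spread over most of the range. After the Sall3 desert came those of Klf4, a pluripotency factor, with 0.845 (0.684 to 1.03), of Id2, an inhibitor of bHLH factors, with 0.836 (0.676 to 1.02), and of Epha4, a guidance receptor, with 0.830 (0.748 to 0.918). The orphan receptor gene Nr2f2 had 0.753 (0.663 to 0.852) beside it, and Pou3f3, a neural POU factor, had 0.727 (0.651 to 0.808). The desert next to Myc, the growth-promoting factor, had 0.670 (0.595 to 0.752) from 290 fragments, and that of Bcl11a, a repressor of fetal globin, had 0.667 (0.607 to 0.732). Longer deserts were lower, with 0.580 (0.542 to 0.620) at Zeb2, 0.572 (0.525 to 0.622) at Nr2f1 and 0.547 (0.498 to 0.601) at Gata3. Epha7 borders 2 deserts, with 0.550 (0.500 to 0.603) on one side and 0.570 (0.526 to 0.616) on the other, which do not differ beyond counting error. In deserts under 200 kb, that of Sox2, a pluripotency factor, had 1.21 (0.922 to 1.55) and that of Sall1 had 1.02 (0.838 to 1.23). Lmo4 had 1.08, Irx1 1.05, Sox11 1.00, Fgf9 0.890, Myc on its other side 0.747, Sox9 0.712 and Id4 0.356, from as few as 2 fragments. The intervals of all these hold 1. Zic1 had 0.356 (0.195 to 0.597) from 14 fragments, with an interval below 1, and the short desert of Isl1 is described above.

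Antigen receptor loci fell under the rule, since their variable segments are not annotated as protein-coding genes. The deserts concerned were 3, with 119 segments of Igk on chromosome 6, 114 of Igh on chromosome 12 and 70 of the T cell receptor alpha locus on chromosome 14. Their levels were 0.601 (0.559 to 0.646), 0.560 (0.511 to 0.613) and 0.602 (0.527 to 0.685). Together they had 0.587 (0.557 to 0.618), slightly above the 0.540 (0.536 to 0.544) of all deserts. Bins with such a segment had 0.608 (0.570 to 0.649) inside deserts. The alpha locus also holds 19 empty bins, 12 of them in a pair of runs, and segments of such families share sequence, so that reads may be placed on the wrong copy or left out.

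Inside deserts, bins with a lncRNA gene were slightly higher than bins without any gene. The 1566 desert bins with a lncRNA gene had a level of 0.601 (0.585 to 0.617), against 0.532 (0.527 to 0.536) in the 17035 desert bins without any gene, a ratio of 1.13 (1.10 to 1.16). Of 13 libraries above 20000 fragments, 12 had the higher level at lncRNA bins. The ratio was 1.14 (1.10 to 1.19) at 500 to 750 kb from protein-coding genes, 1.15 (1.08 to 1.22) at 750 to 1000 kb and 1.03 (0.966 to 1.09) beyond. Desert bins with a pseudogene had 0.579 (0.554 to 0.606). Among other bins without a protein-coding gene, lncRNA bins had 1.09 (1.09 to 1.10) and gene-free bins had 0.872 (0.869 to 0.875).

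The 249 lncRNA genes that lay wholly inside deserts were low as well. Counted from 2.5 kb before to 2.5 kb after each gene, their median level was 0.578, against 1.14 for the 12159 lncRNA genes elsewhere on the autosomes. An interval below 1 was found for 100 of them (40.2%) and an interval above 1 for 3 (1.20%), while over all autosomal lncRNA genes the shares were 7.19% and 18.1%. The desert genes are longer, with medians of 18.4 kb and 8.28 kb, and a longer gene reaches an interval below 1 more easily. Of the 249, 8 had no fragment.

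The 3 lncRNA genes above 1 lay in 2 of the deserts that were high as a whole. The levels of these deserts count the fragments of the genes as well, so that the 2 are not independent. Gm46614 in the Sall3 desert had 1.85 (1.39 to 2.41) from 54 fragments of 11 libraries. C230079O03Rik had 1.84 (1.17 to 2.77) from 23 fragments of 9 libraries and its neighbour C030029H02Rik had 1.55 (1.14 to 2.05) from 48 fragments of 12 libraries, both between Mki67 and Mgmt. Next among genes with at least 20 fragments came Gm33758, beside the LIM-only factor gene Lmo4, with 1.46 (0.965 to 2.13) and Gm36212, beside Mctp2, with 1.44 (0.965 to 2.07), whose intervals hold 1. The lowest was Gm31145 (chr4:23689815-23835052) beside the neural factor gene Pou3f2, with 0.320 (0.211 to 0.465) from 27 fragments over 145 kb. Gm13912 had 0.332 (0.205 to 0.507), 4930474H20Rik had 0.409 (0.283 to 0.572), Gm40552 had 0.431 (0.299 to 0.603) and Gm6602 had 0.442 (0.329 to 0.582). The roles of these genes are not known from the sources used here.

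Around the starts of lncRNA genes the level was also lower in deserts, and so was the GC content. RefSeq start regions matched 195 lncRNA genes inside deserts with 220 starts, and 9093 genes with 11088 starts outside. The median GC content of the 300 bases was 42.3% inside deserts and 48.7% outside, and 2.73% and 19.5% held 10 or more CG dinucleotides, against 43.9% of all autosomal start regions in the table. The level within 5 kb of sequence centred on the start region was 0.794 (0.726 to 0.868) inside and 1.28 (1.27 to 1.29) outside. Among starts with less than 40% GC it was 0.568 (0.472 to 0.678) in deserts and 0.904 (0.873 to 0.935) elsewhere, and at 45 to 50% it was 0.890 (0.738 to 1.06) and 1.30 (1.27 to 1.32). At 50% or more it was 0.901 (0.715 to 1.12) and 1.43 (1.41 to 1.45), and at 40 to 45% 0.943 (0.806 to 1.10) and 1.13 (1.10 to 1.16). Desert starts were thus lower in each of the 4 classes. Starts of 1 gene can share fragments, and the GC content of the deserts themselves was not measured.

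Fragments in deserts were slightly longer than elsewhere. The median length was 333 bp in deserts and 321 bp in other bins, and it was longer in deserts in all 13 libraries above 20000 fragments. Fragments under 150 bp, shorter than the DNA of a nucleosome with its linker, made up 6.53% (6.34% to 6.73%) in deserts and 8.48% (8.43% to 8.53%) elsewhere, with the lower share in deserts in these 13 libraries. The shallow library 5-11 went the other way, with 20.4% short fragments in deserts and 15.2% elsewhere and medians of 322 and 343 bp. It had only 318 desert fragments, and 14, 11, 11 and 9 of them lay in 4 bins with piled-up fragments, described below. In each of these bins 94.8% or more of the pooled fragments were under 150 bp. The values of library 5-11 without these bins were not computed, so that no exception of this zygote is shown. The ratio of the level in deserts to that in other bins was 0.400 (0.387 to 0.413) for fragments under 150 bp, 0.509 (0.503 to 0.516) at 150 to 300 bp, 0.547 (0.540 to 0.554) at 300 to 500 bp and 0.533 (0.521 to 0.544) at 500 bp or more. Within the shortest class the ratio was 0.723 (0.670 to 0.779) under 75 bp, the highest of any class, and 0.362 (0.350 to 0.375) at 75 to 150 bp. The value under 75 bp rested on bins above 10 times the autosomal mean, described below: without them, in deserts and elsewhere, it was 0.273 (0.232 to 0.319), and the ratio at 75 to 150 bp was 0.363 (0.350 to 0.376). This split was chosen after the data were seen. Over the 13 libraries the ratio ran from 0.323 to 0.471 for the shortest class and from 0.449 to 0.644 at 300 to 500 bp.

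**Figure D5:**
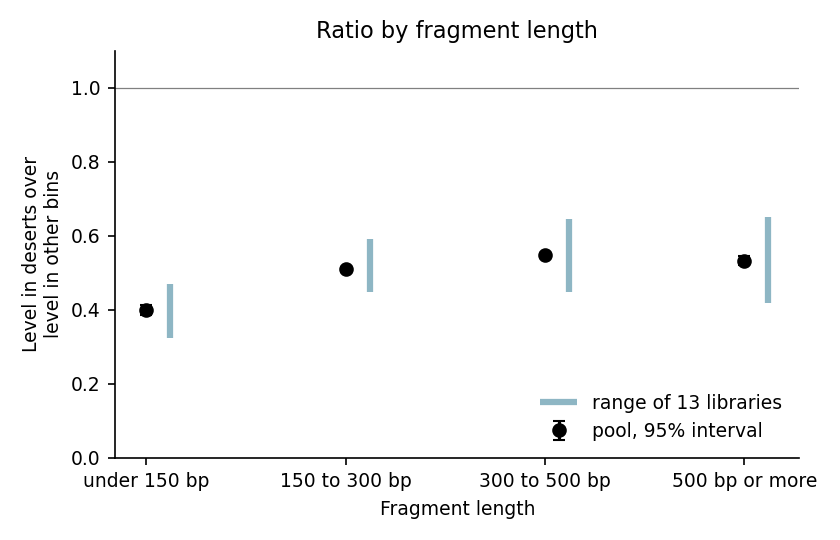
Ratio of the H3K4me1 level in gene deserts to that in the other autosomal bins, by fragment length. Points are the pool with its 95% interval and bars the range of the 13 libraries above 20000 fragments; the shortest class has the lowest ratio, 0.400, and all values lie below 1.

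Enriched bins were rare in deserts. A bin was called enriched from 3 times the autosomal mean, given 20 fragments and 5 contributing libraries. By this rule 5 desert bins were called, or 0.0253% (0.00822% to 0.0591%), against 0.518% of all autosomal bins. Deserts thus held 0.402% of the 1244 called bins on 8.21% of the sequence. The minimum of 20 fragments is a level of 3.56 and so sets the limit. A desert bin starts from a lower level and must rise further above its surroundings to reach it. The rarity of called bins cannot be told apart from the low level of deserts. Bins above 10 times the mean were not rare in the same way, since 4 of the 30 on the autosomes lay in deserts, or 0.0203% (0.00552% to 0.0519%) of desert bins against 0.0125% of all bins.

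In these 4 bins the fragments were short and piled up. The bins lay in the Isl1 desert (chr13:115740001-115750000, 184 fragments), in the Pcdh9 desert (chr14:90910001-90920000, 159), between Gm40892 and the adhesion gene Flrt2 (chr12:93570001-93580000, 146) and between Igfbp7 and the latrophilin gene Adgrl3 (chr5:80500001-80510000, 97). Their levels were 32.7, 28.3, 26.0 and 17.3 times the mean, while the bins on either side held 1 to 6 fragments. A stretch of 500 bp held 94.8% to 99.3% of the fragments of each bin, and the median fragment was 39 to 63 bp long. In the Isl1 bin up to 16 fragments of 1 library covered the same base, and in the Pcdh9 bin up to 14. All 14 libraries contributed, and the counts did not follow depth: library 5-11, with 7106 fragments, had 14 in the Isl1 bin and 11 in the Pcdh9 bin, and library 5-4, with 197312, had 14 and 12. What sequence these stretches hold was not examined, as no genome sequence was used here. The fifth bin, between Marcks, which encodes an actin-binding substrate of protein kinase C, and Rfpl4b (chr10:37820001-37830000), held 20 fragments from 10 libraries, with a level of 3.56 (2.17 to 5.50). It shared part of this shape, with 80% of its fragments under 150 bp, a median of 78.5 bp, 12 fragments in 500 bp and 16 over 1 base, though at most 3 of 1 library. The median share of fragments under 150 bp was 98.3% (94.8% to 99.3%) over the 4 desert bins and 96.5% (14.9% to 99.3%) over the 26 bins above 10 times the mean elsewhere on the autosomes. No desert bin outside these 5 held more than 17 fragments.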

How the data were processed

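Only the H3K4me1 data were used here, and the H3K27me3 and transcriptome samples were not analysed here. The deposited table lists 1 fragment per line with a count of 1 in all 1424363 lines, and the authors pooled both batches in it per the labels. The submitters' processing notes name the build mm10. Aligner, duplicate removal, filters and Tn5 shift: not given in the sources used here. RefSeq tables of GRCm38.p6, which mm10 represents, supplied gene positions and start regions. Fragments were placed by their midpoint and counted in 10 kb bins, between the ends of the covered chromosomes. Intervals are exact Poisson for levels, Clopper-Pearson for shares and conditional for ratios, and they cover counting error only, as the table gives no molecular identifiers. Named deserts are the 5 longest and, from 200 kb, the 5 highest and 5 lowest; named lncRNA genes are the 5 highest and 5 lowest from 20 fragments. Some results that these rules name are not reported here. The deserts, gene lists and rules were chosen with earlier results of these data known. The code was tested on simulated data, with Python 3.11.15, numpy 2.4.6, pandas 2.3.3 and scipy 1.17.1.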

Additional observations from a re-analysis of the deposited data

Results flagged for a closer look

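Data outside the comparisons above also held fragments in gene deserts, above the limit that a count of 0 allows. On the X chromosome, 1269 bins met the same rule and had a level of 0.416 of the autosomal mean, against 0.565 in the other X bins, a ratio of 0.736 (0.709 to 0.764) from 2966 desert fragments. The shallow library 4-1, which was left out of the pool, had 36 fragments in deserts and 607 elsewhere on the autosomes, a ratio of 0.663 (0.460 to 0.928). Library 4-3 had 5 and 62, a ratio of 0.901 (0.283 to 2.22), which at this depth cannot be told from 1 or from the ratio of the pool. The difference between the X chromosome and the autosomes was not tested.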

How the results depend on the processing

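The ratio of the desert level to that of other autosomal bins stayed below 1 under all 31 alternatives. It was 0.587 with bins from 250 kb, 0.484 with bins from 1 Mb, 0.483 with lncRNA genes also counted as genes, 0.514 with 50 kb bins, 0.532 with libraries weighted equally, 0.527 with other bins weighted by chromosome and 0.527 in libraries named 4 alone. Chosen after the data were seen, counting every RefSeq gene gave 0.471 and fragments of 150 bp or more gave 0.530. Leaving out 1 library gave 0.512 to 0.529. Empty desert bins were 7.57% from 250 kb and 10.5% from 1 Mb, and 9.35% to 12.5% with 1 library left out, highest without the deepest library 5-4. Enriched desert bins numbered 23 from 250 kb, 1 from 1 Mb and 0 with fragments of 150 bp or more, and 4 to 5 with 1 library left out. Deserts with an interval below 1 numbered 193 to 200, and those above 1 numbered 4 to 5, with 1 library left out. The share of short fragments in deserts over that elsewhere was 0.770, 0.693 without bins above 10 times the mean, and 0.763 to 0.781 with 1 library left out. The cause of these shifts was not tested, except that a farther limit keeps fewer bins and that fewer libraries leave more bins empty. A 10 kb desert bin holds about 3 fragments, so that single bins are not resolved at this depth. No paired analysis was possible because the table carries no batch for its libraries.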
